A study of Mus musculus with 4 samples.

Results

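The laminin and hemidesmosome genes examined here are 8 genes that anchor epithelial cells to the basement membrane: the laminin chains Lama3, Lamb3, Lama5, Lamb1 and Lamc1, and the hemidesmosome genes Itga6, Col17a1 and Dst. They were taken by name from a table of 50679 genes, with earlier results of these data known. All 8 were found and passed the filter on low values. Transcripts were measured in 4 RNA-seq libraries of mouse mammary tumour cells carrying PyMT, the polyoma middle T oncogene, in every group. Of these libraries, 2 had wild-type PCNA (WT 1 and WT 2) and 2 had the 211F form of PCNA (211F 1 and 211F 2), PCNA being the DNA replication clamp. Donor mice were 10 weeks old, and the dissociated tumours were enriched for epithelium with an EpCAM antibody before plating in serum-containing medium. The promoter that drives PyMT, the mouse strain, the passage of the cells and whether a library came from 1 animal or a pool are unknown here, so p-values cover only the spread between these libraries.

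Laminins are trimers of an alpha, a beta and a gamma chain that assemble into the sheet of the basement membrane. A trimer that contains the Lama3 and Lamb3 products is the form beneath hemidesmosomes, the rivets that tie basal epithelial cells to the membrane, whereas Lama5, Lamb1 and Lamc1 products form a trimer that is widespread under epithelia and vessels. In the hemidesmosome the integrin of Itga6 and Itgb4 products and the transmembrane collagen of Col17a1 face the membrane, and the plakins encoded by Dst and Plec link them to keratin filaments. In the mammary gland this junction is a feature of the basal, myoepithelial layer.

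One library went against its epithelial label. Levels are given as FPKM, read fragments per kilobase of transcript length, relative to library size. The 4 epithelial markers were Epcam, Cdh1, Krt8 and Krt18. All 4 were at or above 1 FPKM in WT 1, 211F 1 and 211F 2, with sums of 862 to 1484 FPKM. In WT 2, 0 of 4 were, and they summed to 2.88 FPKM. The 7 fibroblast markers were Col1a1, Col1a2, Col3a1, Pdgfra, Pdgfrb, Dcn and Lum. They summed to 1076 FPKM in WT 2, against 5.64 to 35.3 in the other libraries. At or above 1 FPKM were 6 of 7 in WT 2, 4 in 211F 1, 2 in WT 1 and 1 in 211F 2. Pdgfrb was at 19.5 FPKM in 211F 1 and 23.9 in WT 2, and Lum was at or near 0 in every library. Mesenchymal genes (Vim, Zeb1, Fn1 and Cdh2) summed to 2338 FPKM for WT 2 and 3847 for 211F 1, but 259 for WT 1 and 30.1 for 211F 2. The 3 markers of smooth muscle and myoepithelium summed to 588 FPKM in 211F 1 and 103 in WT 2, and to at most 0.685 in the others. Leukocyte markers summed to at most 4.17 FPKM with Ptprc near 0, endothelial markers to at most 1.97, adipocyte markers to at most 0.0248 and the 3 Schwann cell markers to at most 3.39. The part of these cell states or cell types in the results below was not tested. Each library's FPKM summed to between 544399 and 564977, and the table holds no counts. The spacing of low values puts sequencing depth at 0.941 to 1.72 times that of WT 1 if libraries were not rescaled.

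Promoter sequence from RefSeq (GRCm38.p6) was at hand for 5 of the 8 members: Lamb3, Col17a1, Lama5, Lamb1 and Dst. The 4 windows below were chosen after the expression values were seen. The transcripts of Lamb3 and Col17a1 followed each other across libraries, those of Lamb1 did not follow them, and Lama5 lay between. Dst transcripts did not follow those of Lamb3 and Col17a1 either, and the Dst windows are not shown. Each window is the 250 bases before a RefSeq start site, 5′ to 3′ on the strand of the gene. Motif matches on either strand are in capitals.

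Lamb3 (chr1:193301744-193301993, plus strand, the more upstream of 2 listed starts): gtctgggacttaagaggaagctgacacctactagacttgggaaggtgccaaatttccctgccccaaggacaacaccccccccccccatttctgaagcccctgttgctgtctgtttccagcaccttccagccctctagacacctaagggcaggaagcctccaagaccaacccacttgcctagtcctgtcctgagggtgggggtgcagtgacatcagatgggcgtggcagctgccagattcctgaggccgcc

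Col17a1 (chr19:47692043-47692292, minus strand): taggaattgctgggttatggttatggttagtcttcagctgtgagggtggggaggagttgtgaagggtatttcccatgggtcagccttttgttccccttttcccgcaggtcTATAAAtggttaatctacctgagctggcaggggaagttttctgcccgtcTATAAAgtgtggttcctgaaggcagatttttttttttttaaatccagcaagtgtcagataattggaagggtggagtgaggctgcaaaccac

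Lama5 (chr2:180225860-180226109, minus strand): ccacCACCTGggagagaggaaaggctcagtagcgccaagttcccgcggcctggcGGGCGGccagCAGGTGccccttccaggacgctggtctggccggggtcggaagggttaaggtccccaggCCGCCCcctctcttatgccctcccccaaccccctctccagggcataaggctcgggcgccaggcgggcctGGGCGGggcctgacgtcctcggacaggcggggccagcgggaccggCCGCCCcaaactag

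Lamb1 (chr12:31265043-31265292, plus strand): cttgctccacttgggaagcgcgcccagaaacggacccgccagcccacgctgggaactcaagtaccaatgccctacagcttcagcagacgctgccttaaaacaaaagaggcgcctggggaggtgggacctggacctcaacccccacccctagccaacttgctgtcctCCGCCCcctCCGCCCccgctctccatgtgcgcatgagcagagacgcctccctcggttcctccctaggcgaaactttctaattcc

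Motifs searched were TGANTCA (bound by AP-1), CACCTG (an E-box bound by Snail and Zeb proteins), GGGCGG (the GC box) and TATAAA (the TATA box). The Col17a1 window held TATAAA at 2 places, 140 to 135 and 91 to 86 bases before the start, a motif found in 12.4% of 32851 windows of this length. GENCODE puts the outermost Col17a1 start at 47692094 and the outermost Lamb1 start at 31265234, each inside the window of its gene. The outermost Lamb3 start, at 193207699, lies far upstream of the Lamb3 window shown. That of Lama5, at 180225859, adjoins its window. Lama5 had 2 matches of the E-box (in 17.2% of windows) and 4 of the GC box (in 32.7%), and Lamb1 had 2 of the GC box. The Lamb3 window shown held none of the 4 motifs, but that of the other listed Lamb3 start (chr1:193301993-193302242), which is not shown, held CACCTG at 6 to 1 bases before its start. Of the Dst windows, that at chr1:34011345-34011594 held CACCTG, and GGGCGG at 4 places. The other, at chr1:34160010-34160259, held none of the 4 motifs. The E-box was thus found both for Lamb3, which was low in WT 2, and for Dst, which was not. TGANTCA, in 6.75% of windows, was in none of the windows named here. GC content was 46.0% for Col17a1, 58.8% for Lamb3, 62.0% for Lamb1 and 72.4% for Lama5, against a median of 52.4% over all windows. These matches describe letters only.

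The alpha 3 and beta 3 chains were nearly missing from WT 2 and abundant in the other libraries, and neither separated the genotypes. Lama3 (ENSMUSG00000024421; GRCm38 chromosome 18, 12333819 to 12583013, plus strand), the alpha chain of the hemidesmosomal laminin, measured 25.4 FPKM for WT 1, 0.109 for WT 2, 21.3 for 211F 1 and 56.6 for 211F 2. WT 2 stood far below the rest, WT 1 lay between the 211F libraries, and the groups overlapped. The lowest of the other libraries was 195 times the WT 2 level. On the log2(FPKM + 1) scale used for every difference here, 211F minus WT was 2.73 ± 1.70 (SE; limma adjusted p = 0.99995), and without WT 2 it was 0.44 ± 0.76 (limma adjusted p = 0.999). An antisense gene overlaps 1 Lama3 exon, and the table does not tell its 2 annotated transcripts apart. In bulk RNA of this kind, fewer cells of a type and less RNA per cell cannot be told apart.

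Lamb3 (ENSMUSG00000026639; chromosome 1, 193207699 to 193343878, plus strand), the beta chain of the same trimer, measured 178 FPKM for WT 1, 0.365 for WT 2, 41.2 for 211F 1 and 158 for 211F 2. WT 1 and 211F 2 were high, 211F 1 was intermediate and WT 2 was lowest, so the groups overlapped. The difference was 2.39 ± 2.58 (SE; limma adjusted p = 0.99995), and its direction turned without WT 2 (-1.12 ± 1.03). In WT 2 both chains were above what 3 fragments would give over the longest transcript (0.00471 FPKM for Lama3, 0.0102 for Lamb3), so they were detected at a low level.

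**Figure D1:**
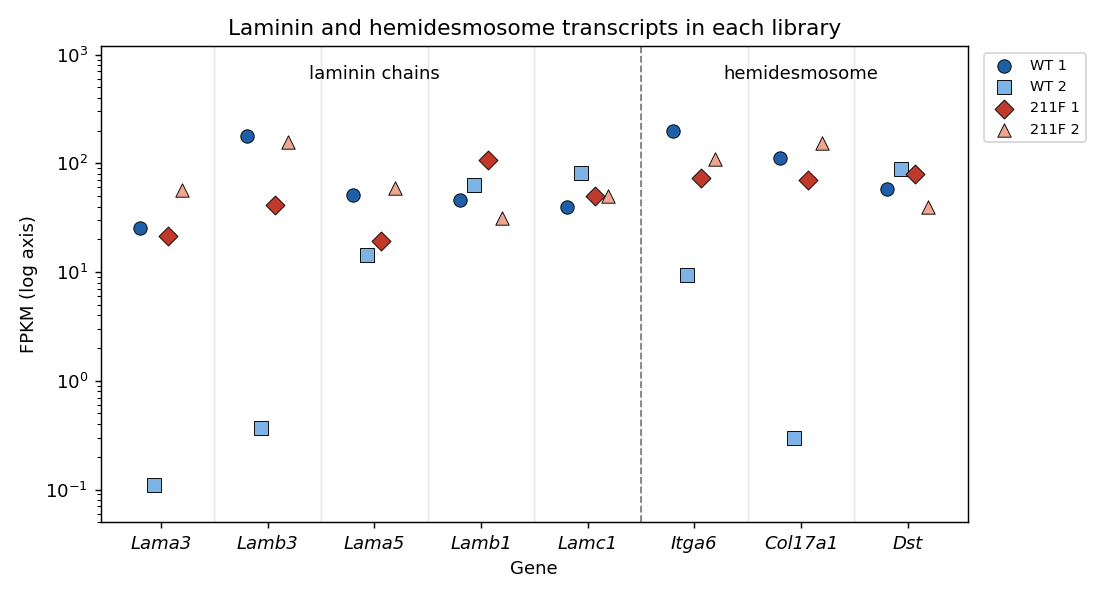
FPKM of each of the 8 genes (x axis) on a log axis (y axis), 1 symbol for each library: circle WT 1, square WT 2, diamond 211F 1, triangle 211F 2. WT 2 lies at 0.109 to 0.365 FPKM for Lama3, Lamb3 and Col17a1 and at 9.47 for Itga6, whereas Lamb1, Lamc1 and Dst lie between 31.1 and 107 FPKM in every library.

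The chains of the widespread trimer were expressed in every library, and those of Lamb1 and Lamc1 were not low in WT 2. Lama5 (ENSMUSG00000015647; chromosome 2, 180176373 to 180225859, minus strand), its alpha chain, measured 51.0 FPKM for WT 1, 14.4 for WT 2, 19.2 for 211F 1 and 58.6 for 211F 2. WT 1 and 211F 2 were high, WT 2 and 211F 1 low, and each genotype held a library of either kind. The Lama5 difference of 0.29 ± 0.86 (SE; limma adjusted p = 0.99995) was smaller than the change between both WT libraries (-1.75) or both 211F libraries (1.56), and it was -0.58 ± 0.86 without WT 2.

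Lamb1 (ENSMUSG00000002900; chromosome 12, 31265234 to 31329644, plus strand), the beta chain, measured 45.8 FPKM for WT 1, 63.5 for WT 2, 107 for 211F 1 and 31.1 for 211F 2. Here 211F 1 and WT 2, the low libraries for Lama5, were the high ones, and both WT values lay inside the range of the 211F values. The Lamb1 difference was 0.10 ± 0.67 (SE; limma adjusted p = 0.99995), and it was -0.13 without WT 1 and -0.78 without 211F 1. Lamc1 (ENSMUSG00000026478; chromosome 1, 153218922 to 153332786, minus strand), the gamma chain shared by most laminins, varied least and measured 39.8 FPKM for WT 1, 81.5 for WT 2, 49.8 for 211F 1 and 49.8 for 211F 2. WT 2 was highest, WT 1 lowest, and both 211F libraries fell between them. Lamc1 had a highest to lowest ratio of 2.05, the smallest of the 8, and a difference of -0.19 ± 0.41 (SE; limma adjusted p = 0.99995), which was 0.31 ± 0.25 without WT 2.

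FPKM is scaled by transcript length, so levels of different chains can be set side by side within a library. The length used for each gene is not given, so such comparisons are rough. Among the 5 alpha chains, Lama3 made up 22.3% of the summed FPKM for WT 1, 0.487% for WT 2, 40.2% for 211F 1 and 40.4% for 211F 2. The rest was nearly all Lama5 (36.1% to 64.2%) and Lama4, the alpha chain of vessel and mesenchymal laminins (17.7% to 34.3%); Lama1 and Lama2 each held at most 1.04%. Lama4 measured 37.0 FPKM for WT 1, 7.68 for WT 2, 12.0 for 211F 1 and 24.7 for 211F 2, lowest in WT 2. Among beta chains Lamb3 held 71.3% in WT 1 and 72.2% in 211F 2, but 23.2% in 211F 1, where Lamb1 led with 60.1%, and 0.324% in WT 2, which held Lamb1 (56.3%) and Lamb2 (43.4%). The summed level of alpha chains was lowest in WT 2 (22.4 FPKM, against 53.1 to 140 elsewhere), as was that of beta chains (113 FPKM, against 177 to 249).

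**Figure D2:**
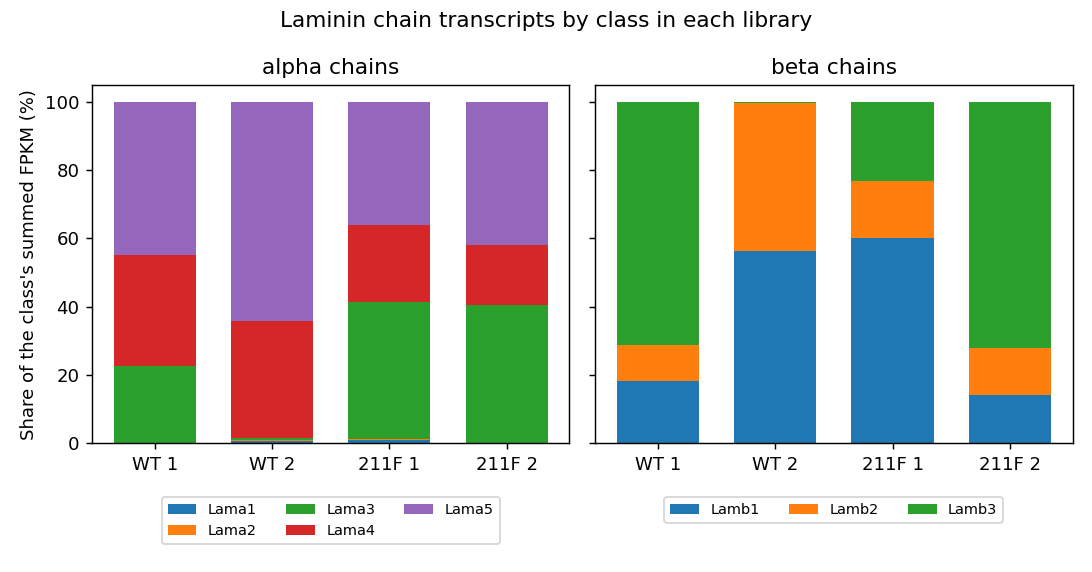
Share (%) of each laminin chain in the summed FPKM of its class (y axis) in each library (x axis), in panels for alpha and beta chains. The Lama3 and Lamb3 segments are all but missing in WT 2 (0.487% and 0.324%), and 211F 1 pairs a Lama3 share of 40.2% with a Lamb1 share of 60.1%.

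Chain ratios within a library were compared between genotypes for 2 pairs. In plain FPKM the ratio of Lama3 to Lama5 was 0.498 for WT 1, 0.00759 for WT 2, 1.11 for 211F 1 and 0.966 for 211F 2, and that of Lamb3 to Lamb1 was 3.88, 0.00575, 0.386 and 5.10 in that order. The test used the log2 ratio of (FPKM + 1), which draws in the ratios of chains that are low. On that scale Lama3 to Lama5 was -0.98 for WT 1, -3.80 for WT 2, 0.15 for 211F 1 and -0.05 for 211F 2. Both WT libraries were below both 211F libraries, with a difference of 2.44 (exact permutation p = 0.333, two-sided, n = 2 each), the smallest p that 2 against 2 allows. The size of that difference rests on the pseudocount (3.61 at 0.1 and 1.44 at 5). The corresponding values of Lamb3 to Lamb1 were 1.93, -5.56, -1.35 and 2.31, and the groups overlapped (difference 2.30, exact permutation p = 0.667). Adjusted over the 2 pairs by Benjamini-Hochberg, both exact permutation p-values were 0.667. Without WT 2 the differences were 1.03 for Lama3 to Lama5 and -1.45 for Lamb3 to Lamb1, so the last turned.

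Itga6, Itgb4 and Col17a1, which encode membrane components of the hemidesmosome, were low or nearly missing in WT 2. The plakin genes Dst and Plec were not. Itga6 (ENSMUSG00000027111; chromosome 2, 71745616 to 71858416, plus strand), the integrin alpha 6 chain that binds laminin, measured 200 FPKM for WT 1, 9.47 for WT 2, 73.3 for 211F 1 and 109 for 211F 2. WT 1 was highest and WT 2 lowest, with both 211F libraries between. The Itga6 difference was 0.98 ± 1.53 (SE, limma adjusted p = 0.99995), and without WT 2 it was -1.15 ± 0.38. In that last fit WT 1 is the lone wild-type library, so its SE holds no spread between WT libraries. Its hemidesmosomal partner Itgb4, not among the 8, measured 135 FPKM for WT 1, 0.558 for WT 2, 76.6 for 211F 1 and 356 for 211F 2. Itga6 therefore remained at 9.47 FPKM in a library where Itgb4 was under 1, while Itgb1, the other beta chain with which integrin alpha 6 pairs, was at 351 FPKM there.

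Col17a1 (ENSMUSG00000025064; chromosome 19, 47646344 to 47692094, minus strand), the transmembrane collagen of the hemidesmosome, measured 112 FPKM for WT 1, 0.295 for WT 2, 70.3 for 211F 1 and 153 for 211F 2. The value in WT 2 was far below the others, and WT 1 lay inside the range of the 211F libraries. The lowest of the other libraries was 238 times the WT 2 level, which itself was above the 0.00890 FPKM that 3 fragments would give. The difference was 3.11 ± 2.32 (SE; limma adjusted p = 0.99995), the largest among the 8, and -0.11 ± 0.62 without WT 2.

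Dst (ENSMUSG00000026131; chromosome 1, 33908225 to 34308661, plus strand), the plakin dystonin, measured 57.8 FPKM for WT 1, 87.9 for WT 2, 79.4 for 211F 1 and 39.7 for 211F 2. WT 2 was highest and 211F 2 lowest, the inverse of the order for Col17a1. The Dst difference was -0.34 ± 0.45 (SE; limma adjusted p = 0.99995), and -0.04 ± 0.57 without WT 2. Dst has epithelial, neuronal and muscle isoforms, and the table gives 1 value for its 20 annotated transcripts, so the level of the epithelial form is not known; exons of 2 genes on the other strand also overlap it, and how strand was treated in counting is unknown here. Plec, the other plakin, measured 40.7 FPKM for WT 1, 77.7 for WT 2, 81.3 for 211F 1 and 66.5 for 211F 2. The tetraspanin gene Cd151, whose product binds laminin-binding integrins, ranged only from 104 FPKM in WT 2 to 158 in 211F 2.

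Across the 8 genes, the comparison of 211F with WT gave no call. In limma, 0 of 8 passed an adjusted p of 0.05, as did 0% of the 12767 genes tested, and 0 of 8 passed an unadjusted p of 0.05, as did 1.89% of all genes (241). The groups did not overlap in 0 of 8 members, against 26.8% of all tested genes. The difference was positive in 6 members and negative in 2 (Lamc1 and Dst), with a median of 0.64, against 53.1% positive and a median of 0.03 over all tested genes. Without WT 2, 3 members were positive (Lama3, Lamb1 and Lamc1) and 5 negative, with a median of -0.08, against 0.06 over all genes. Without WT 1, where WT 2 is the lone wild-type library, 4 of 8 members (Lama3, Lamb3, Itga6 and Col17a1) had an unadjusted p under 0.05, as did 6.55% of all genes, and 0 passed adjustment in limma (smallest adjusted p = 0.594, 0% of all genes called). In 8 of 8 members the WT libraries differed from each other by more than the genotypes did. The share of all tested genes that did so was not computed, so this is not shown to be particular to the members.

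**Figure D3:**
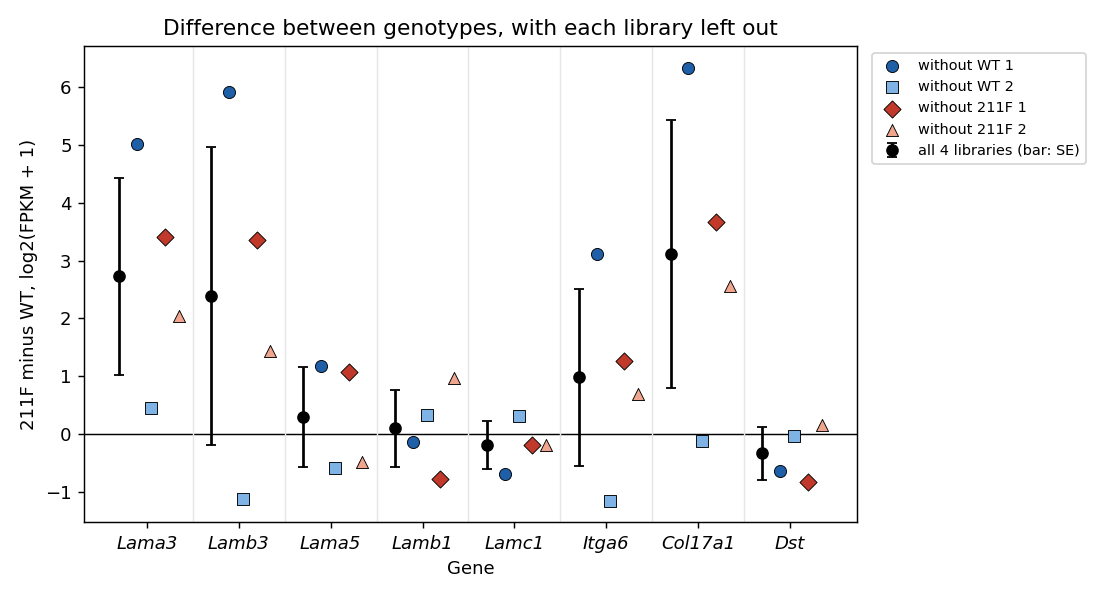
Difference 211F minus WT on the log2(FPKM + 1) scale (y axis) for each gene (x axis); black points with SE bars are from all 4 libraries, coloured symbols leave out the library named. Without WT 1 the Lama3, Lamb3 and Col17a1 values reach 5.02 to 6.34, and without WT 2 they lie between -1.12 and 0.44.

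The library that stood apart was the same for most members. WT 2 was the lowest library in 5 of 8 (Lama3, Lamb3, Lama5, Itga6 and Col17a1), as it was in 29.0% of all tested genes. It was below each other library by at least 2 log2 units in 4 of 8 (the same genes without Lama5), as in 1.97% of all tested genes. WT 2 was the highest library in Lamc1 and Dst, 2 of 8, as in 30.2% of all tested genes. These counts were chosen after the values were seen and carry no test. As a measure of likeness, the root mean square distance between profiles over the 4 libraries, each centred on its own mean in log2(FPKM + 1), was 0.50 between Lamb3 and Col17a1 and 0.70 between Lama3 and Col17a1. Among the members that were not low in WT 2 it was 0.35 between Lamb1 and Dst and 0.38 between Lamc1 and Dst, whereas it was 3.20 between Lamb3 and Lamc1, the largest of the 28 pairs.

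Other genes that lay closest to the members by the same distance were listed from 7532 with a mean of at least 10 FPKM. Near Col17a1 was Lad1, which encodes the basement membrane zone protein ladinin (0.11). For Lamb3 they were Spint2, an inhibitor of membrane serine proteases (0.22), and the desmosomal plakin Dsp (0.24), and for Lama3 Lypd3 (0.14) and Wnt7b (0.17). Those of Itga6 were Arhgap27 (0.16) and Irx2 (0.19), and those of Lama5 were Nadk (0.06) and Ttc7 (0.06). Dst lay closest to Wwtr1, the transcriptional coactivator TAZ (0.01), and the integrin gene Itgb5 (0.02), and Lamb1 to Tead1, a transcription factor that binds such coactivators (0.07), and Mbnl2 (0.10). Lamc1 had Elob (0.02) and Il17rc (0.02) as its nearest. With only 4 libraries, many genes share a profile by these measures.

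Further genes of adhesion to laminin were read in 4 lists, in which limma called 0 of 25 tested genes and 4 had an unadjusted p under 0.05 (Col7a1, Itga3, Itga7 and Col4a2), against 1.89% of all tested genes. Each of these 4 had groups that did not overlap, as had 26.8% of all tested genes. Picking genes by a small p favours such groups, so the 2 shares cannot be compared. Of 6 other hemidesmosome and anchoring genes, 6 of 6 tested had a positive difference (median 1.41), and in 3 the groups did not overlap, all higher in 211F, a pattern seen in 15.2% of all tested genes. Among these, Col7a1, the collagen of anchoring fibrils, measured 13.4 FPKM for WT 1, 4.69 for WT 2, 37.7 for 211F 1 and 22.6 for 211F 2 (1.74 ± 0.59, SE; limma adjusted p = 0.99995; 1.07 ± 0.47 without WT 2). Fermt1, the epithelial integrin activator kindlin, was at 19.6, 0.0266, 20.8 and 25.7 FPKM in the same order, nearly missing from WT 2 alone. Trp63, the basal transcription factor p63, was at 89.6, 0.329, 11.5 and 42.2 FPKM, an order of libraries that is also that of Lamb3. The other basal markers had other orders: Krt5 was at 245, 1.23, 1029 and 3.84 FPKM, nearly missing from 211F 2 as well as WT 2, and Krt14 at 1058, 2.41, 1297 and 1722. Without WT 2, a check added after the values were seen, 5 of these 6 genes were positive with a median of 0.26, since Trp63 was at -1.96 ± 0.97 (SE), Itgb4 at 0.29 ± 1.17 and Fermt1 at 0.23 ± 0.33.

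Of 6 laminin receptors, 4 were positive and 2 negative (median 1.02, or 0.58 without WT 2), and in 3 the groups did not overlap, all higher in 211F, as in 15.2% of all tested genes. Itga3, the alpha chain of another laminin-binding integrin, measured 138 FPKM for WT 1, 83.8 for WT 2, 327 for 211F 1 and 210 for 211F 2 (1.27 ± 0.39, SE; limma adjusted p = 0.99995). Without WT 2 the Itga3 difference was 0.92 ± 0.41. Unlike Itga6, Itga3 was highest in 211F 1 and remained high in WT 2. Itgb1 was at 323, 351, 765 and 429 FPKM in that order, also highest in 211F 1. Itga7 was at 0.504, 0.977, 15.1 and 3.49 FPKM, low in both WT libraries and again highest in 211F 1. Its difference was 2.30 ± 0.77 (SE), or 2.50 ± 1.04 without WT 2. Bcam, a receptor for Lama5 laminins, measured 83.8 FPKM for WT 1 and 20.0 for 211F 2, but 0.177 for WT 2 and 1.32 for 211F 1, the libraries with the lower Lama5 levels. Dag1, dystroglycan, was likewise lower in WT 2 (69.6 FPKM) and 211F 1 (57.0) than in WT 1 (261) and 211F 2 (177).

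Of 16 basement membrane partners 11 were tested, 5 positive and 6 negative (median -0.16), with 3 that did not overlap, all higher in 211F (Col4a1, Col4a2 and Col18a1), against the 15.2% of all tested genes. Col4a2 measured 53.3 FPKM for WT 1, 46.2 for WT 2, 196 for 211F 1 and 89.5 for 211F 2 (1.40 ± 0.45, SE). Without WT 2 the Col4a2 difference was 1.30 ± 0.63, that of Col18a1 was 0.47 in place of 1.15, and the median was -0.08. Nid1, nidogen, which bridges laminin and collagen of the basement membrane, was present in WT 2 (43.8 FPKM) and 211F 1 (16.0) and near 0 in WT 1 (0.0185) and 211F 2 (0.00490). Nid2 had the same order of libraries, at 16.4 and 10.4 against 0.0173 and 0.00613 FPKM. Both nidogens were thus near 0 in the libraries with the higher Lama5 levels, but 211F 1 held nidogens together with Lama3 (21.3 FPKM) and Lamb3 (41.2 FPKM). Col4a6, a collagen chain of epithelial basement membranes, had the opposite pattern, with 12.6 FPKM for WT 1 and 20.7 for 211F 2 against 0.0388 and 0.0306 for WT 2 and 211F 1. Perlecan, Hspg2, stayed between 43.8 and 67.1 FPKM, while agrin, Agrn, measured 112 FPKM for WT 1, 31.0 for WT 2, 52.5 for 211F 1 and 144 for 211F 2. Of 5 other laminin chains 2 were tested (Lama4 and Lamb2), and the groups overlapped in both.

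**Figure D4:**
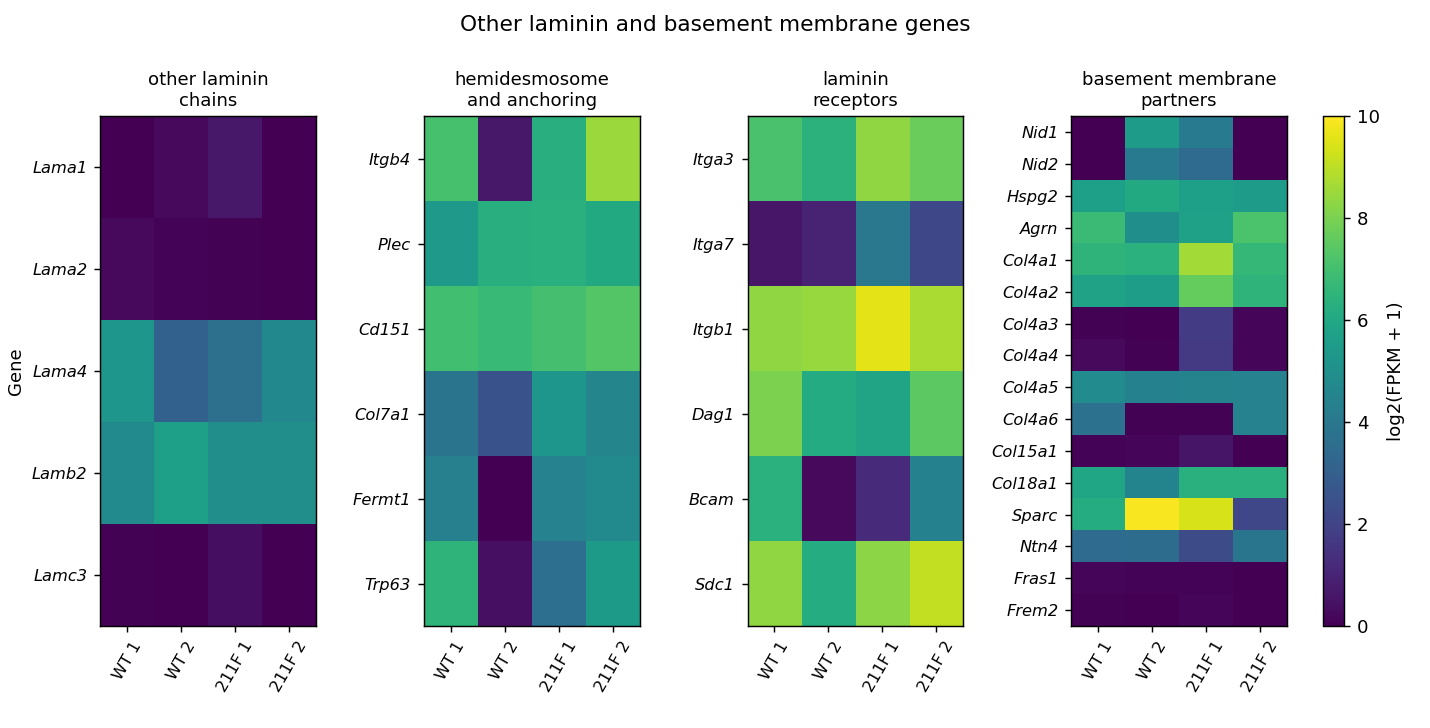
Levels as log2(FPKM + 1) (colour scale) of the 33 genes of the 4 further lists (rows) in each library (columns). Itgb4, Fermt1 and Trp63 are dark in WT 2 alone, whereas Nid1 and Nid2 are dark in WT 1 and 211F 2.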

How the data were processed

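RNA-seq values of 4 libraries (2 WT, 2 211F) were used as FPKM in 1 table deposited by the authors, with no read counts. TopHat2 2.0.13, DESeq2 and GRCm38 appear, without a stated role, in the submitters' processing notes; which program, annotation and strand setting made the FPKM is not given in the sources used. Symbols and positions came from GENCODE M21 (GRCm38) and promoters from RefSeq (GRCm38.p6). Of 50679 identifiers, 12767 with a mean of at least 1 FPKM were fitted as log2(FPKM + 1) with limma 3.58.1 in R 4.3.3 (trend in the prior variance, two-sided, Benjamini-Hochberg over all genes at 0.05), and the procedure was tested on simulated data. This scale understates changes of low genes. Low values of 1974 genes with a single transcript of at least 3000 bp fell on whole steps, within 0.1, for 83.8% to 88.8% of values; the step gave relative depth and the level of 3 fragments, and covers counting error only. Named genes were the 8 members, 4 further lists and the 2 nearest genes of each member, with predicted, clone-named, mitochondrial and small RNA symbols left out of the last; some genes these rules took, and results that need them, are not reported here. Members and lists were chosen with earlier results of these data known. Alternatives were other pseudocounts, filters, scalings, no trend, a replicate block and each library left out.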

Additional observations from a re-analysis of the deposited data

How the results depend on the processing

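limma called 0 genes and 0 members under the 12 other settings run, and the unadjusted count of 241 genes became 745 unfiltered (from more genes), 142 under the replicate block and 221 to 836 with a library left out. Over 64 member values with all libraries kept (pseudocounts of 0.1 and 5, filters, scalings, no trend, replicate block), 0 turned in direction. The filters, no trend and the replicate block cannot change a member difference in this design. Only the pseudocounts and scalings could have turned one. With 1 library left out, which assumes that the remaining one of its group varies as the other group does, 9 of 32 turned: 5 without WT 2 (Lamb3, Lama5, Lamc1, Itga6 and Col17a1), 1 without WT 1 (Lamb1), 1 without 211F 1 (Lamb1) and 2 without 211F 2 (Lama5 and Dst). The ranges were 0.44 to 5.02 for Lama3, -1.12 to 5.91 for Lamb3, -0.58 to 1.17 for Lama5, -0.78 to 0.97 for Lamb1, -0.70 to 0.31 for Lamc1, -1.15 to 3.11 for Itga6, -0.11 to 6.34 for Col17a1 and -0.83 to 0.15 for Dst. The differences in chain ratio ranged from 1.03 to 3.84 for Lama3 to Lama5 and from -1.45 to 6.04 for Lamb3 to Lamb1 (they were 3.61 and 3.06 at a pseudocount of 0.1, and 1.44 and 1.37 at 5). Replicate numbers are shared across genotypes, but the labels do not say that they pair libraries. Libraries with the same number deviated from their group means with r = -0.465 over genes. The replicate block leaves the member differences the same by design, and with it 0 genes were called. With 2 libraries a group and 0 genes called, the lack of a call does not show that a member was unchanged. The size of difference that could be detected is not given here.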
